A study of Mus musculus with 2 samples.

Results

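*Otx2* and 6 other transcription factors of the formative state (*Pou3f1*, *Zic2*, *Foxd3*, *Sox3*, *Sall2* and *Utf1*) were followed in mouse embryonic stem cells (mESCs) that had lost AIMP3. These 7 genes, of 37018 genes or accessions on the array, were selected by name after *Otx2* had stood out by its fall in the same comparison, so their ratios are given as a description without a test. AIMP3 (gene symbol *Eef1e1*) is an auxiliary protein of the complex that carries several aminoacyl-tRNA synthetases. All cells were AIMP3f/f;cre-ERT2 mESCs, in which both *AIMP3* alleles are floxed and a Cre recombinase fused to a modified estrogen receptor is activated by 4-hydroxytamoxifen (4-OHT). AIMP3-depleted cells received 2 μM 4-OHT and control cells received ethanol, each for 4 days in medium with LIF, the cytokine that holds mESCs in self-renewal. RNA of 2 AIMP3-depleted replicates was labelled with Cy5 and hybridized to 1 array each. RNA of 2 control replicates was combined into 1 pool, labelled with Cy3 and used on both arrays. The dyes were not swapped and both arrays lay on 1 slide, so an effect of the dye and an effect of the depletion cannot be told apart, and the spread of the control cells was not measured. Control cells carry the same alleles and the same Cre but never saw 4-OHT, so an effect of the drug or of active Cre cannot be told apart from loss of AIMP3 either.

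mESCs in LIF are in, or close to, the naive state of the preimplantation epiblast. On leaving it they pass through a formative state, in which naive factors are shut down and competence for the germ layers and the germline is gained. OTX2, a homeodomain factor of the orthodenticle family, is switched on early in this transition and acts with OCT4, also called POU5F1, at newly engaged enhancers. Later it is needed for the anterior neural plate and the head.

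On these arrays the *AIMP3* gene itself was measured first. *Eef1e1* had a log2 ratio of -0.90 on both arrays (mean -0.90 ± 0.0067 SD, n = 2, limma adjusted p = 5.02e-05), and the files do not say whether its probe lies in the deleted part. *Pou5f1*, *Sox2*, *Nanog* and *Zfp42* (also called *Rex1*), which mark mESCs, were each well above background. The control channel was read on both arrays from the same pool, and its readings differed between arrays by 0.131 (SD on the log2 scale over 24031 tested genes). Of all tested genes, 1327 (5.52%) were over 1.5-fold higher and 190 (0.791%) over 1.5-fold lower in AIMP3-depleted cells at an unadjusted p under 0.05. Whatever the fold, 13039 of the 24031 had a limma adjusted p under 0.05. Such a p-value alone therefore does not set a gene apart.

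The stretch before an *Otx2* start site is shown because this gene carries the finding, with that of *Utf1*, which stayed within 1.5-fold, beside it. RefSeq lists 4 starts for *Otx2* on GRCm38.p6, and the array does not say which of them made the RNA it detected. Each line holds the 250 bases before the start, 5′ to 3′ on the strand of the gene. The first is the stretch of the third listed *Otx2* start, at chr14:48665110-48665359 on the minus strand, and the second that of *Utf1*, at chr7:139943606-139943855 on the plus strand. Capitals mark TAATCC, the letters that homeodomains of the OTX type prefer, found here as GGATTA on the opposite strand.
Otx2: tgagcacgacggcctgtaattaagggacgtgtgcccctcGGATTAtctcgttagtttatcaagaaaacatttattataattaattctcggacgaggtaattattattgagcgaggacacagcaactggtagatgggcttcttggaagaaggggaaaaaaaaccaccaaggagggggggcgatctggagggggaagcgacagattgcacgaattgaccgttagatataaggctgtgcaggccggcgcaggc
Utf1: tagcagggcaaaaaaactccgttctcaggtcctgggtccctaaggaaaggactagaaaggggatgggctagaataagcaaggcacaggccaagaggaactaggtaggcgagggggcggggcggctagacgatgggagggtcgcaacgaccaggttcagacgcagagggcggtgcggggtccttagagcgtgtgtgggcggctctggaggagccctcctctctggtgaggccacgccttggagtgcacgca
Those capitals begin 211 bases before the *Otx2* start. The letters were searched on both strands. They stood before none of the other listed *Otx2* starts and before no listed start of *Foxd3*, *Sall2* or *Utf1*, so 1 of the 4 members with an entry held them. Over all genes in the table, 7.21% (1949 of 27025) held them. A match of this kind is a description of the letters and not a site of binding.

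In the mean of both arrays after loess, *Otx2* had the lowest ratio of all 24031 tested genes. It ranked 2 from the lowest in replicate 1 alone and 5 in the deposited table. Its log2 ratio of AIMP3-depleted over control was -1.65 in replicate 1 and -1.67 in replicate 2 (mean -1.66 ± 0.012 SD, n = 2). The level thus fell by 68.3%, to 0.317 times that of the control. Its normalized control level was 12.49 and 12.42 on the log2 scale on the 2 arrays, and its AIMP3-depleted level was 10.84 and 10.75. The control and AIMP3-depleted readings therefore did not overlap, and they were more than 1.5 log2 units apart on each array. The *Otx2* spot stayed well above background in every channel, at 106 times the local background in the control channel and at 42.0 and 31.7 times in the AIMP3-depleted channel. In RNA from a whole culture, fewer cells that express a gene and less RNA of it per cell cannot be told apart, and this holds for every value below.

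**Figure D1:**
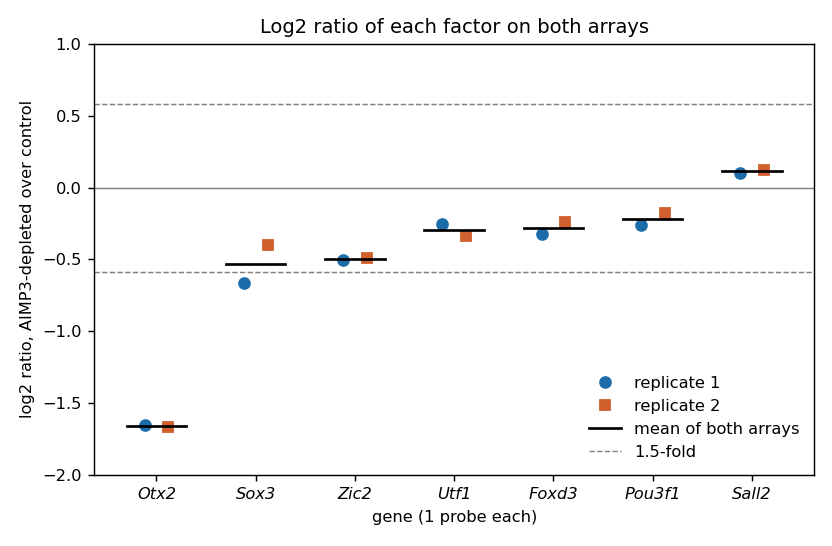
Log2 ratio of AIMP3-depleted over control (vertical axis) for the 7 factors (horizontal axis), with replicate 1 as circles, replicate 2 as squares, their mean as a bar and 1.5-fold as dashed lines. *Otx2* lies at -1.66, all others lie between -0.53 and 0.11, and *Sox3* is the gene whose 2 arrays differ most.

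The other 6 factors did not come near this fall. *Sox3*, a SOXB1 factor of epiblast and neural progenitors, had log2 ratios of -0.66 and -0.40 (mean -0.53 ± 0.19 SD). *Zic2*, a zinc finger factor that works at enhancers during naive exit, had -0.50 and -0.49 (mean -0.50 ± 0.011). These genes followed *Otx2* in the order of ratios, at ranks 305 and 408 from the lowest of all tested genes, at 0.692 and 0.709 times the control level. The array values of *Sox3* enclosed those of *Zic2*, so their order is not settled. Between *Otx2* and *Sox3* lay a gap of 1.13 log2 units in the means, and their array values did not overlap.

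*Utf1*, a chromatin-associated factor of pluripotent cells, had log2 ratios of -0.25 and -0.34 (mean -0.30 ± 0.059 SD). *Foxd3*, a forkhead factor required to maintain the epiblast, had -0.32 and -0.24 (mean -0.28 ± 0.059). *Pou3f1*, also known as *Oct6*, a POU factor that rises after naive exit, had -0.26 and -0.17 (mean -0.22 ± 0.061). All 3 stood at 0.815 to 0.860 times the control level, and neighbours among them overlapped between arrays. *Zic2* and *Utf1* did not overlap.

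*Sall2*, a spalt-like zinc finger factor that can take part in reprogramming, was the only one of the 7 above the control. Its log2 ratios were 0.10 and 0.12 (mean 0.11 ± 0.015 SD, 1.08 times the control level). Its place was the 65.7th percentile of all tested genes, and its array values did not overlap those of *Pou3f1*.

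**Figure D2:**
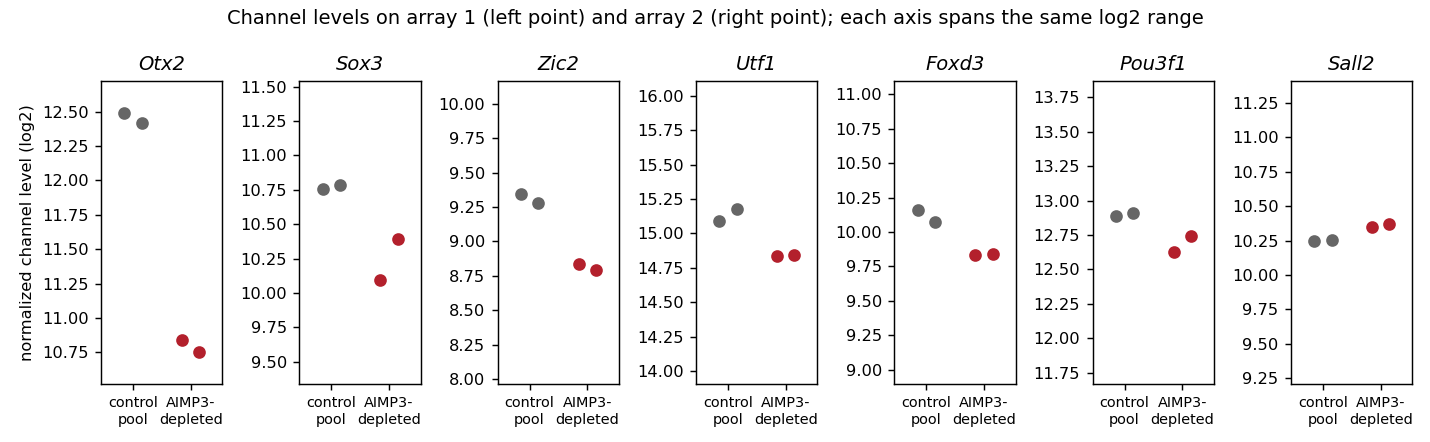
Normalized level of each factor on the log2 scale (vertical axes, all spanning the same range) in the control pool (grey) and in AIMP3-depleted cells (red), with replicate 1 at the left of each pair and replicate 2 at the right. The *Otx2* pairs are over 1.5 log2 units apart, the *Sox3* readings of AIMP3-depleted cells are spread from 10.09 to 10.39, and the *Sall2* pair is higher in AIMP3-depleted cells. Levels are not comparable between genes.

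The level readings were also compared between arrays. They were derived from the ratio and mean intensity of a spot after normalization, so they cannot place a difference in 1 channel. The *Sox3* control readings were 10.76 and 10.79, close together, while those of AIMP3-depleted cells were 10.09 and 10.39. Before normalization its signals were 28.6 and 26.3 times the local background in the control channel and 24.3 and 24.8 times in the AIMP3-depleted channel. For *Utf1* the control readings of the same pool differed by more (15.09 and 15.18) than the AIMP3-depleted readings (14.83 and 14.84). The same was true of *Foxd3*, at 10.16 and 10.08 against 9.84 on both arrays. For *Zic2* the readings were 9.34 and 9.28 in the control pool and 8.84 and 8.79 in AIMP3-depleted cells. Those of *Pou3f1* were 12.88 and 12.91 against 12.62 and 12.74, and those of *Sall2* 10.25 on both arrays against 10.35 and 10.37. No control reading overlapped an AIMP3-depleted reading for any of the 7 genes, but the control readings were repeat readings of the same pool. How many of all tested genes also lacked overlap was not counted, so the lack of overlap does not set the 7 apart.

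Each factor was read by 1 probe, and all 7 were well above background in every channel. By the 1.5-fold limit, *Otx2* was lower and the other 6 were within it, which is 1 of 7 beside 0.791% of all tested genes that were called lower. The ratio was below 0 on both arrays for 6 of 7, beside 39.7% of all tested genes. Because *Otx2* led to the choice of the set from this comparison, neither count bears on whether the set moved.

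**Figure D3:**
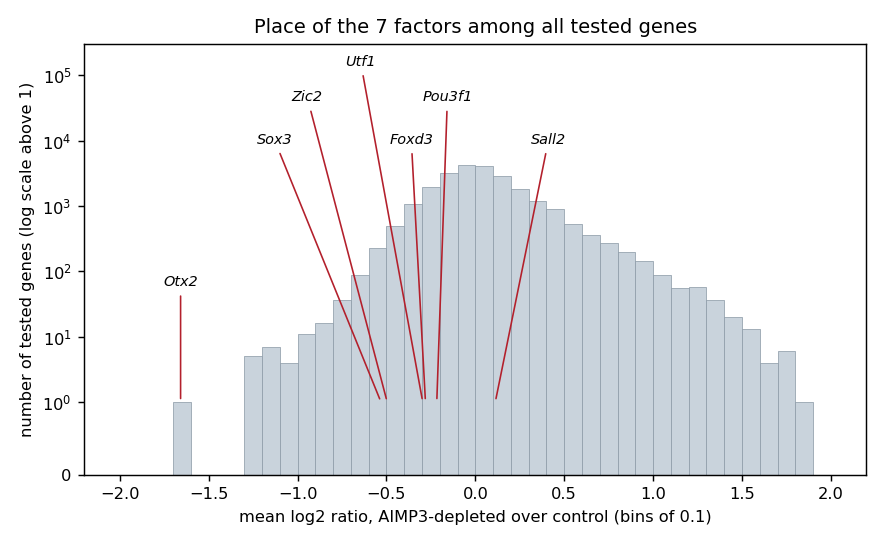
Number of tested genes (vertical axis, log scale above 1) by mean log2 ratio of AIMP3-depleted over control (horizontal axis, bins of 0.1), with a red line that runs from each factor's name and ends at its ratio. *Otx2* sits alone at the low end at -1.66, *Sox3* and *Zic2*, at -0.53 and -0.50, lie in the lower tail, and the other 4 lie between -0.30 and 0.11.

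The genes with the pattern most like that of *Otx2* were those at the smallest Euclidean distance from it over the log2 ratios of the 2 arrays, among genes named in RefSeq and well above background in every channel. They were *Ly6g6e* (mean log2 ratio -1.26, distance 0.568), *Upp1* (-1.24, 0.599), *Klk1b5* (-1.24, 0.619), *Ndufa4l2* (-1.22, 0.664) and *Egln3* (-1.19, 0.704). *Upp1* encodes a uridine phosphorylase and *Egln3* a prolyl hydroxylase that acts on hypoxia-inducible factors. None of the 5 is a transcription factor, and with 2 arrays the measure says little more than that their ratios were among the lowest.

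The size of the ratios of *Sox3*, *Zic2*, *Foxd3* and *Sall2*, and the sign of those of *Utf1* and *Pou3f1*, turned on how dyes and background were handled. From the signals that the scanner software had already processed, *Zic2* came to -0.77 and *Sox3* to -0.63, so 3 of the 7 factors passed 1.5-fold lower, beside 3.21% of all tested genes, and *Otx2*, at -1.76, became the fifth lowest gene. In the deposited table the same 3 factors passed 1.5-fold lower, beside 2.57% of all tested genes. *Zic2* was the factor nearest to background, with a signal 9.42 and 8.28 times the local background in the AIMP3-depleted channel. *Sox3* alone rested on 1 array for its side of the limit, as it came to -0.66 from replicate 1 and -0.40 from replicate 2. With each array centred on its median in place of loess, *Utf1* came to 0.07 and *Pou3f1* to 0.02, while the median of all tested genes moved to 0.18, which left both below the median by 0.11 and 0.16. Under that centring *Foxd3* came to -0.09 and *Sall2* to 0.31. Before dye normalization, the signals of *Utf1* and *Pou3f1* were a larger multiple of the local background in the AIMP3-depleted than in the control channel. Those of *Utf1* were 495 and 499 times in the control channel and 623 and 566 times in the AIMP3-depleted channel. The median over all spots other than control spots differed in the same direction, at 2.68 and 2.72 times against 3.31 and 2.93 times. Against the median of all tested genes, *Otx2*, *Sox3*, *Zic2*, *Foxd3*, *Utf1* and *Pou3f1* were lower and *Sall2* higher under every background correction and normalization tried.

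**Figure D4:**
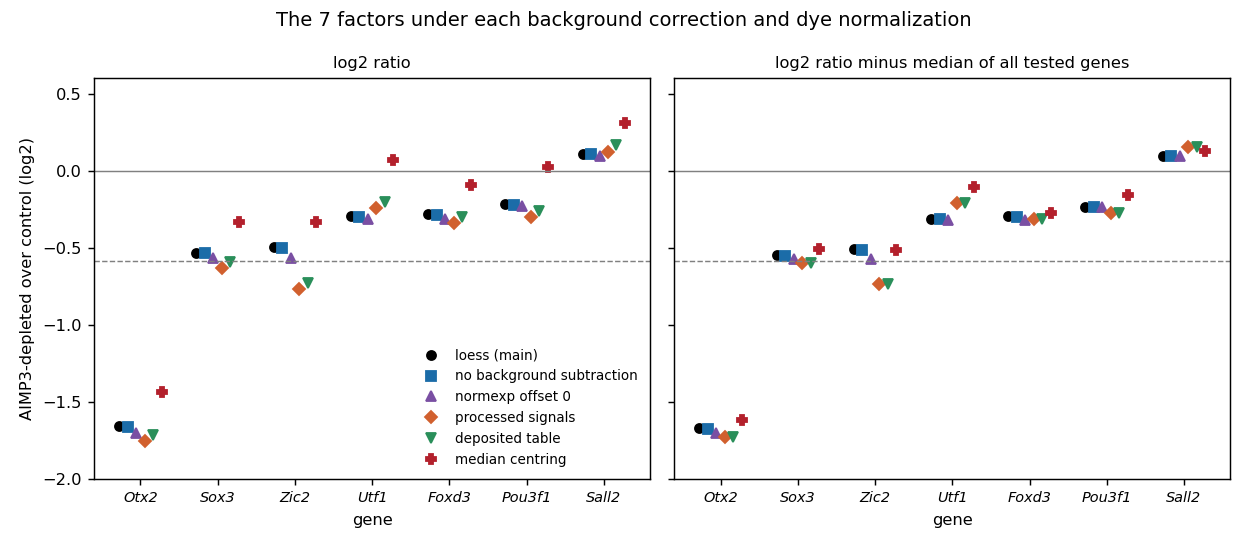
Mean log2 ratio of AIMP3-depleted over control for the 7 factors under 6 ways of correcting background and normalizing dyes (left), and the same after subtracting the median of all tested genes (right), with 1.5-fold lower as a dashed line. *Otx2* stays below -1.4 in each, *Zic2* ranges from -0.33 to -0.77 in the left panel, and *Utf1* and *Pou3f1* lie above 0 in the left panel under median centring but below 0 in the right panel.

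The next question was whether other genes of the same transition fell with *Otx2*. Of 22 other formative and primed epiblast genes, all of them tested, 3 fell and 1 rose, beside 0.791% and 5.52% of all tested genes. The other 18 did not pass the limits. Ratios were below 0 on both arrays for 17 of the 22, beside 39.7% of all tested genes. Their median ratio on the log2 scale was -0.20 against 0.02 for all tested genes, but it came to 0.11 under median centring, which is 0.07 below the median of all genes there. *Zic5*, a ZIC family zinc finger factor, fell (-0.78 ± 0.14 SD, n = 2, limma adjusted p = 0.000172). *Dnmt3b*, a de novo DNA methyltransferase that rises in the formative state, also fell (-0.73 ± 0.045, limma adjusted p = 9.02e-05), as did *Fgf15*, a growth factor gene of the epiblast (-0.73 ± 0.052, limma adjusted p = 9.46e-05). Under median centring only *Zic5* of these 3 stayed past 1.5-fold, at -0.65, and *Nodal*, a TGF-beta family ligand, was called higher (0.78, against 0.46 after loess), which made 2 higher and 1 lower, beside 11.7% and 0.27% of all tested genes under that centring. *Cdh2*, which encodes N-cadherin, rose (1.27 ± 0.056, limma adjusted p = 3.49e-05). *Fgf5*, the usual marker of the postimplantation epiblast, had a log2 ratio of -0.25, within the 1.5-fold limit (limma adjusted p = 0.00395), and came to -0.07 under median centring and -0.40 with the processed signals. *Dnmt3l*, the cofactor of the de novo methyltransferases, had -0.23 (limma adjusted p = 0.00539).

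Of 17 paralogs of the 7 factors 10 were tested, 1 rose and 1 fell, beside 5.52% and 0.791% of all tested genes. *Otx1*, *Pou3f2*, *Pou3f3*, *Pou3f4*, *Zic4*, *Foxd1* and *Foxd2* were not well above background in either channel on both arrays. *Sall3* rose (0.74 ± 0.019 SD, limma adjusted p = 7.98e-05) and *Zic5* fell as above. The ratio of *Sall3* was 1.42 with the processed signals and 1.46 in the deposited table. *Sall1* and *Sall4* had ratios of -0.12 and -0.14, which turned to 0.09 and 0.10 under median centring. The brighter probe of *Zic1* gave -0.28 and its other probe 0.50, and the mean of both 0.11, so the sign of *Zic1* depends on the probe.

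*Zic5* is also the next protein-coding gene to *Zic2* in RefSeq, and both had ratios below 0. Of 14 next protein-coding genes on either side of the 7 factors, 12 were tested, 2 fell and 1 rose, beside 0.791% and 5.52% of all tested genes. The other that fell was *Kndc1*, next to *Utf1* (-0.68 ± 0.053 SD, limma adjusted p = 0.000119). The one that rose was *Rragc*, next to *Pou3f1*, which encodes a RAG GTPase of nutrient signalling (0.68 ± 0.066, limma adjusted p = 0.000132). The neighbours of *Otx2*, *Tmem260* and *Exoc5*, had ratios of -0.07 and 0.31 and did not pass the limit.

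Naive factors gave no shared direction. Of 16 naive factors, all tested, 3 fell and none rose past 1.5-fold, beside 0.791% and 5.52% of all tested genes, with a median log2 ratio of 0.07. Those that fell were *Fgf4* (-0.87 ± 0.028 SD, limma adjusted p = 5.33e-05), which drives ERK signalling at naive exit, *Dppa3* (-0.62 ± 0.039, limma adjusted p = 0.000144), a maternal factor that protects DNA methylation, and *Tdgf1* (-0.59 ± 0.067, limma adjusted p = 0.000204), a NODAL co-receptor. Under median centring none of these 3 passed the limit while *Tbx3*, a T-box factor of the naive network, was called higher (0.72, against 0.49 after loess), and *Tdgf1* did not pass it with the processed signals (-0.55) or without replicate 2. *Nr0b1* had a ratio of 0.06 (limma adjusted p = 0.251). Among 7 core pluripotency factors none passed the 1.5-fold limit. Ratios were below 0 for *Sox2* (-0.53, limma adjusted p = 0.000239), *Pou5f1* (-0.48, 0.00284) and *Nanog* (-0.38, 0.00134). An adjusted p under 0.05 was shared by 13039 of all 24031 tested genes. Under median centring *Sox2*, *Pou5f1* and *Nanog* came to -0.29, -0.26 and -0.17. The median of the 7 turned from -0.18 to 0.10, below the 0.18 of all tested genes. The call of *Pou5f1* rested on the array used, as it came to -0.64 in replicate 1 alone, past 1.5-fold lower, and to -0.32 in replicate 2 alone. The other *Nanog* probe gave 0.06.

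The 20 regulators of exit from the naive state, among them *Tcf7l1*, *Flcn* and *Rbpj*, had no gene past the limit, beside 5.52% higher and 0.791% lower of all tested genes, and a median log2 ratio of 0.01. Under median centring 3 of the 20 were called higher (*Flcn*, *Ptpn11* and *Gsk3b*), close to the 11.7% of all tested genes. Anterior neural genes, the tissue in which *Otx2* acts later, had none of 10 tested past the limit, where the same shares of all tested genes come to fewer than 1 gene, and a median of -0.06. Of these 10, *Six3*, *Lhx5*, *Pax6* and *Rax* were not above background in all channels. In the scanner's processed signals, with 8.09% of all tested genes called higher and 3.21% lower, *Lhx5* was higher (1.23) and *Pax6* lower (-0.90), both of them in this dim group. Under median centring *Nes*, which encodes the intermediate filament nestin of neural progenitors, was called higher (0.72). After loess it had 0.50 ± 0.096 (SD, n = 2, limma adjusted p = 0.000498), within the 1.5-fold limit. Of 10 tested genes of anterior visceral endoderm and primitive streak, tissues in which *Otx2* is also active, 3 rose and none fell, beside 5.52% and 0.791% of all tested genes. *Foxa2*, a forkhead factor of endoderm, rose by 1.38 on the log2 scale, *Dkk1*, a WNT antagonist, by 1.08 and *Wnt3* by 0.68 (limma adjusted p of at most 0.000100). *Eomes* (-0.16), *Fgf8* (-0.24) and *T* (-0.07) had ratios below 0 on both arrays, within the limit.

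**Figure D5:**
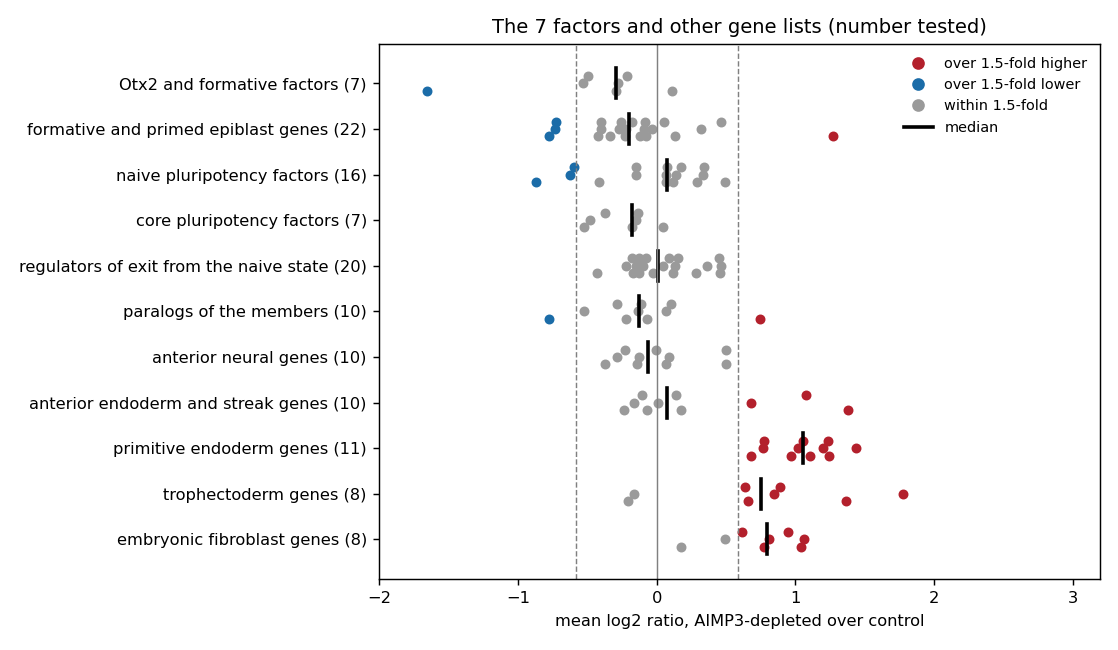
Mean log2 ratio of AIMP3-depleted over control (horizontal axis) for each tested gene of the 7 factors and of 10 gene lists (vertical axis, with the number tested), red where over 1.5-fold higher, blue where over 1.5-fold lower and grey otherwise, with the median as a black bar and 1.5-fold as dashed lines. *Otx2* is the farthest point to the left, and the 11 primitive endoderm genes are all on the right, with a median of 1.05.

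Markers of other cell types moved with the fall of *Otx2* in the opposite direction. All 11 primitive endoderm genes rose, beside 5.52% of all tested genes, with a median log2 ratio of 1.05. *Sox17* was highest at 1.44 and *Gata6* rose by 1.20. The summed normalized level of the 11 was 183237 and 189927 in the control channel and 392970 and 392578 in the AIMP3-depleted channel. Of 8 tested trophectoderm genes 6 rose (median 0.75, *Krt18* 1.78), and their summed level, which weighs the brightest genes most, went from 66044 and 68006 to 187104 and 198690. *Eomes* (-0.16) and *Tfap2c* (-0.21) had ratios below 0 on both arrays, which came to -0.02 and 0.05 under median centring. Of 8 tested fibroblast genes 6 rose (median 0.79, *Col1a1* 1.06), and their summed level went from 20130 and 20790 to 36626 and 37128, while *Lum* and *Fap* were not well above background in either channel on both arrays. The labels place the cells on mouse embryonic fibroblast feeders in general, and the study's methods name medium conditioned by such cells for drug treatments. As background, visceral endoderm, a derivative of primitive endoderm, itself expresses *Otx2*. The part of these cell types in the ratios of *Otx2* and the other factors was not tested.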

How the data were processed

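Gene expression was measured on 2 two-colour Agilent arrays, each with Cy5 for 1 AIMP3-depleted replicate and Cy3 for the control pool. The authors deposited Feature Extraction output (version 11.5.1.1 in the header, another than the methods name) with the intensity of spots and local background, processed signals and a log10 ratio. They also deposited a table of log2 ratios from GeneSpring, with column medians of 0.091 and 0.111. It matched log2 of the processed Cy5 over Cy3 signals within 0.01 for 99.7% of 55681 probes after an offset of 0.0404 (replicate 1) and 0.0395 (replicate 2), so its direction and scale are settled, while its centring is not described.

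Median spot intensity was corrected with normexp (limma 3.58.1 in R 4.3.3, offset 50) and normalized by loess within arrays. Control spots and outlier spots (215 and 227 of 62976 per array) were left out. Probes were kept where at least 1 channel was well above background on each array (33022 of 55681, 24031 genes), and the brightest probe stood for a gene. From 59.3% to 60.6% of spots were well above background per channel and 0 were saturated. Precision is limited by there being 2 arrays. Genes were named through their accessions in RefSeq (GRCm38.p6), which matched 31014 spots and also gave the promoters and the gene order.

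Ratios were tested against 0 with lmFit and eBayes, with Benjamini-Hochberg adjustment over all tested genes. A gene was called changed when over 1.5-fold with an unadjusted p under 0.05, the threshold of the methods. In every changed gene the adjusted p was at most 0.0370. The labels do not say whether the replicates came from separate cultures, so the p-values measure only the spread between these samples. The test leaves out the spread of the control pool, which is 1 control sample.

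On simulated data for this comparison with 24031 genes, of which 200 were changed, 100 of 100 changes of 1.5 and 90 of 100 changes of 1 on the log2 scale were called in the right direction, with 0 false calls. Each simulated spot had independent noise with an SD of 0.048, the median SD of the genes. Unchanged genes could hardly pass 1.5-fold with that noise, so the 0 false calls say nothing about false calls in the real data. There the readings of the control pool differed between arrays by an SD of 0.131. The members, the 10 gene lists and the tests were chosen with earlier results of these data known. Named genes are the members, *Eef1e1*, changed genes of the lists, genes the study text names, the core factors, and the 5 nearest to *Otx2*. Next protein-coding genes and unchanged list genes given with values were added after the values were seen. Alternatives covered background, normalization, probes, filters, single replicates, the limit and the methods' t-test, and a normexp offset of 0 was added after seeing the data.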

Additional observations from a re-analysis of the deposited data

How the results depend on the processing

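The log2 ratio of *Otx2* was -1.66. It came to -1.76 with the scanner's processed signals, -1.72 in the deposited table, -1.70 with a normexp offset of 0 and -1.44 with median centring, and from -1.67 to -1.65 with either replicate left out. The number of the 7 factors past 1.5-fold lower was 1, became 3 with the processed signals and 3 in the deposited table, and ranged from 1 to 2 with a replicate left out (2 without replicate 2, through *Sox3*). The 1517 changed genes became 2716 with the processed signals, 2748 in the deposited table, 2888 with median centring and 298 at 2-fold. With the methods' t-test they became 992, of which 0 passed Benjamini-Hochberg adjustment. With a replicate left out only the 1.5-fold limit was applied, since a lone array gives no p-value. Higher genes made up 87.5% of the changed genes, 71.6% with the processed signals, 77.5% in the deposited table and 97.7% with median centring. Of the 112 tested genes in the 10 lists 34 changed, beside 1517 of all 24031 tested genes. At 2-fold 14 of the 112 did, beside 298 of all 24031. No paired analysis was possible because there is 1 group of arrays against 1 pool. Genes that are dim on these arrays are limited by signal over background, whose median was 2.68 and 2.72 in the control channel.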
